A study of Homo sapiens with 20 samples.

Results

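The comparison set MII cells depleted of APC against MII cells that received a control siRNA. MII (MCF10-T1k) is a human mammary epithelial line transformed with RAS. By their titles, 8 of the 20 arrays of the series belong to it: 4 of cells transfected with siAPC and 4 of cells transfected with siGFP, which the labels also call control siRNA. Each group held the biological replicates A to D. Whether they were grown and transfected apart is not stated, and the p-values therefore reflect spread among these arrays, which may be partly technical. All cells grew in the same medium, with serum, cholera toxin, EGF, hydrocortisone and insulin, and all were transfected with the reagent RNAi MAX. The model has limits: MII is a single line, siRNA lowers a transcript without removing the gene, and no label gives the time from transfection to harvest. The 4 arrays of cells that received siRNA against beta-catenin (sibcat) are used below only to show where APC depletion differed from it, and the other 8 arrays entered only the estimate of the spread.

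APC is the scaffold of the destruction complex, in which the kinases CK1 and GSK3 mark beta-catenin (gene CTNNB1) for degradation. When the complex fails, beta-catenin accumulates, enters the nucleus and acts with TCF/LEF factors on target genes, several of which, such as AXIN2, feed back to dampen the pathway. In mammary epithelium Wnt signalling is known for its role in basal stem cells. The same complex is also linked to YAP and TAZ, coactivators that work through TEAD factors.

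Values are log2 signals of 1 probe set per gene, for 19775 genes, and a change is the siAPC mean minus the siGFP mean. "Rose" and "fell" are used only where limma's adjusted p was under 0.05. In every gene whose signals are given array by array, the siAPC and siGFP arrays did not overlap. Such separation was common: it held for 7623 of the 19775 genes and for 7057 of the 7913 called genes. For the strongest rises and falls it was also a condition of being named, so there it adds no separate evidence. Array medians of the 8 arrays lay between 5.08 and 5.11, arrays of 1 group correlated at 0.9968 or more, and arrays of different groups at 0.9856 to 0.9865. The cells matched their label in both groups. All 8 measured markers of mammary epithelial cells, keratins KRT5, KRT14 and KRT18 among them, had mean signals over 7 in siAPC and in siGFP cells. Of these 8, 7 were lower and 1 higher, and their array means were 11.04 to 11.07 in siAPC and 11.47 to 11.5 in siGFP cells. The pan-leukocyte gene PTPRC averaged 2.72 in siAPC and 2.67 in siGFP cells, and the endothelial gene CDH5 averaged 3.02 and 3.18 in the same order. In bulk RNA, fewer cells of a type and less RNA per cell cannot be told apart. Of 10 fibroblast markers 3 exceeded 7 in either group, DCN, COL1A1 and FAP, and the list's array means were 6.05 to 6.16 in siAPC and 6.29 to 6.38 in siGFP cells, with 3 members lower and none higher. Of 9 leukocyte markers LCP1 exceeded 7 in both groups and CD14 in siGFP cells, 4 were lower and 1 higher. Their array means were 4.87 to 4.95 in siAPC and 5.21 to 5.3 in siGFP cells, and those of 10 endothelial markers 4.0 to 4.14 and 4.24 to 4.46 in the same order; the part of these 4 marker lists, the epithelial one included, in the results was not tested. The 3' minus 5' signal of ACTB, a reading of RNA and labelling quality, was 1.54, 1.55, 1.57 and 1.60 on the siAPC arrays, against 1.80, 1.92, 1.81 and 1.78 on the siGFP arrays. This difference of -0.26 had an exact permutation p of 0.0286 (two-sided), the smallest that 4 against 4 arrays can give. The same measure of GAPDH differed in the opposite direction, by 0.03 with the same exact p of 0.0286 and no overlap, and the part of RNA quality in the results below was not tested.

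APC was lower in all 4 siAPC arrays. Its signals were 7.28, 7.42, 7.33 and 7.35 in siAPC cells, against 8.25, 8.29, 8.21 and 8.15 in siGFP cells. The groups did not overlap, and the change was -0.88 ± 0.05 (SE, adjusted p = 4.42e-11), a signal 1.84-fold lower. Of its 5 probe sets 4 fell and 1 did not, at a siGFP signal of 4.22. CTNNB1 averaged 11.98 in siAPC and 11.94 in siGFP cells, a difference of 0.05 ± 0.05 (SE, adjusted p = 0.527) that was not called. Its other probe sets were both called, in opposite directions, at -0.51 (adjusted p = 0.00055) and 0.32 (adjusted p = 0.000265). Among the other members of the destruction complex GSK3B rose by 0.31 and the tankyrase TNKS, which marks AXIN for degradation, by 0.20 on 1 of its 4 probe sets (0.065, adjusted p = 0.466, with their mean), while JUP (plakoglobin, a close relative of beta-catenin) changed by -0.24. Apart from AXIN2 and APC itself no measured member of the 17 changed by more than 0.31 in either direction.

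Many genes changed and most changes were small. Of 19775 genes, 7913 (40.0%) were called, 4218 higher (21.3%) and 3695 lower (18.7%), and 6113 of the calls were under 1.5-fold. The gene list counts against siGFP below stand against these shares of all genes, and a list whose share lies near them says nothing particular about the list. The lists were chosen with earlier results of these data known, so a share far from them is no independent evidence. At least 2-fold changes were found in 711 genes (3.60%), 369 higher and 342 lower. The largest changes leaned upward: 44 genes were at least 8-fold higher and 17 at least 8-fold lower, and for 16-fold the counts were 15 and 3. In 17 genes all siAPC arrays exceeded a signal of 7 and all siGFP arrays were under 5, near the array medians. Among these were AXIN2, the tryptophan dioxygenase TDO2, the integrin subunit ITGA1 and the basement membrane protein NID2, and, named after their values were seen, the synaptic adhesion gene NRXN3 and the phosphodiesterase PDE1C. The reverse held for 4 genes, CLDN8, SCGB1A1, ART3 and ARL14. These 2 limits were chosen with the values known. Signals this low are compressed by background, so the changes of such genes may be understated.

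**Figure D1:**
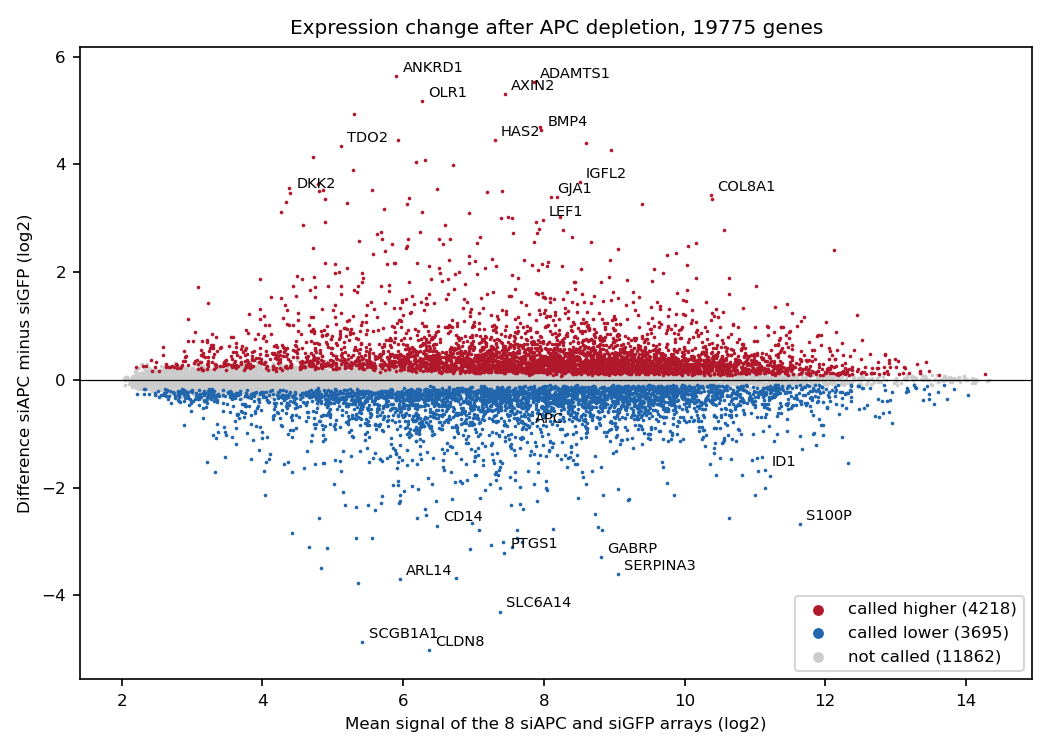
Difference between the mean siAPC and mean siGFP signal (log2, vertical axis) against the mean signal of the 8 arrays (log2, horizontal axis) for each of 19775 genes. Red points are the 4218 genes called higher in siAPC cells, blue points the 3695 called lower and grey points those not called; AXIN2 and ANKRD1 lie near the top and CLDN8 near the bottom.

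Most Wnt feedback genes rose. Of 13 measured feedback genes and R-spondin receptors 9 rose and none fell (69.2% called, against 40.0% of all genes), 5 of them with a mean signal of at least 6. The median change was 0.76, against -0.0025 over all genes tested. AXIN2, a scaffold of the destruction complex and a classical Wnt target, gave 10.08, 10.09, 10.08 and 10.14 on the siAPC arrays, against 4.9, 4.62, 4.86 and 4.79 on the siGFP arrays. The groups lay far apart, and the rise was 39.5-fold. Of the 4 AXIN2 probe sets 2 rose. LEF1, a partner of beta-catenin and itself a Wnt target, gave 9.46, 9.5, 9.41 and 9.49 in siAPC cells, against 6.44, 6.52, 6.51 and 6.53 in siGFP cells, a rise of 2.97 ± 0.05 (SE, adjusted p = 1.77e-19). TNFRSF19 (TROY), an orphan TNF receptor known as a Wnt target, gave 7.45, 7.6, 7.65 and 7.52, against 5.66, 5.38, 5.51 and 5.33 in siGFP cells. The R-spondin receptor LGR6 rose by 1.82 ± 0.20, with 6.55, 6.28, 6.22 and 6.26 in siAPC and 4.32, 4.52, 4.71 and 4.49 in siGFP cells. In all of these genes the lowest siAPC array exceeded the highest siGFP array.

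The other feedback genes called had smaller rises. Apart from SP5 those in this paragraph were named after their values were seen. The transcription factor SP5 rose by 1.17 (adjusted p = 3.5e-06), the membrane Wnt inhibitor APCDD1 by 0.85 (adjusted p = 0.000123) and the Dishevelled antagonist NKD1 by 0.66 (adjusted p = 0.000109). The ubiquitin ligases RNF43 and ZNRF3, which remove Frizzled receptors from the surface, rose by 0.76 and 0.74. Of the members not called, the stem cell receptor LGR5 stood at -0.22 (adjusted p = 0.224), the Wnt deacylase NOTUM at -0.02 and NKD2 at -0.03. LGR5 had a siGFP signal of 4.25, below the array medians.

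**Figure D2:**
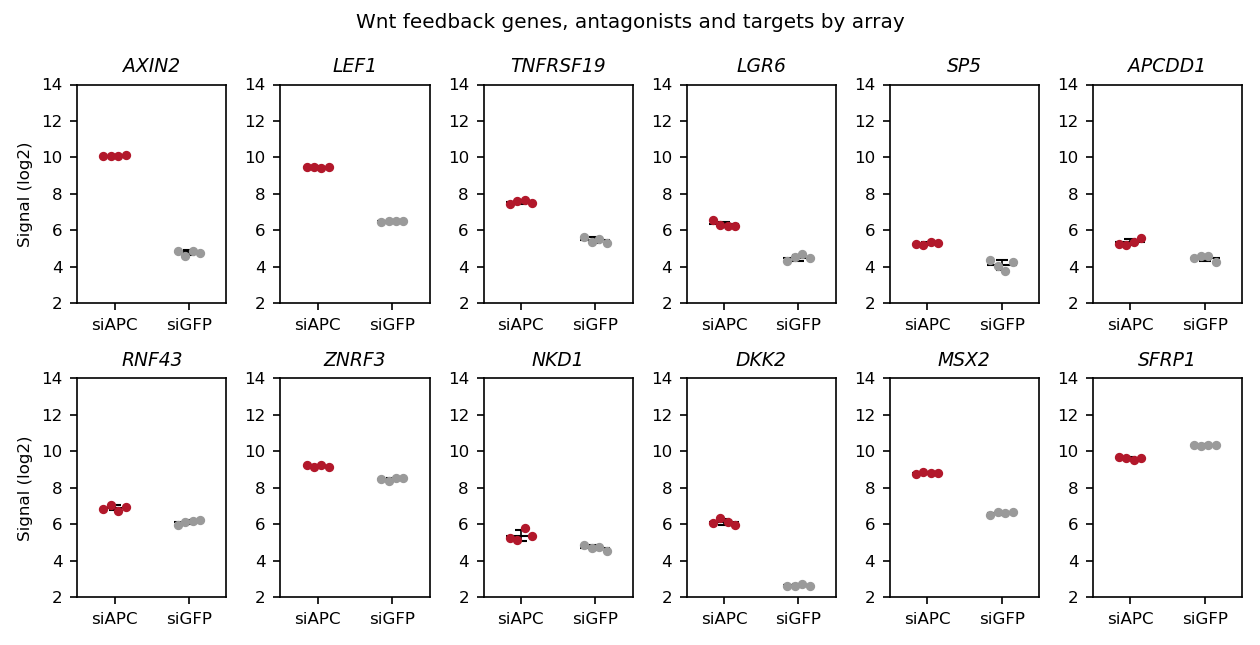
Log2 signal of 12 Wnt genes on each of the 4 siAPC arrays (red, left) and 4 siGFP arrays (grey, right), with the group mean and SD in black; the vertical axis is shared. AXIN2 lies near 10 in siAPC cells and below 5 in siGFP cells, while SFRP1 is lower in siAPC cells.

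Of 13 secreted Wnt antagonists 3 rose, all of them Dickkopf genes, and 3 fell, a called share of 46.2% that lies near the 40.0% of all genes. DKK2 gave 6.1, 6.33, 6.14 and 5.96 in siAPC cells, against 2.61, 2.65, 2.74 and 2.62 in siGFP cells, well below the array medians. Of the 2 DKK2 probe sets 1 rose. DKK3, a divergent family member, rose by 2.19 and DKK1, which blocks the coreceptors LRP5 and LRP6, by 0.70 from an already high siGFP signal of 11.89. SFRP1, a decoy that binds Wnt ligands, fell by 0.74 to 9.62 in siAPC cells, against 10.36 in siGFP cells. Among ligands and receptors 6 rose and 8 fell of 28, with the risen share near the 21.3% of all genes. The noncanonical receptor ROR1 rose by 1.63, FZD2 by 1.27 and the noncanonical ligand WNT5A by 0.49. FZD10 fell by 2.08 (adjusted p = 6.21e-11), FZD5 by 0.83 and FZD3 by 0.76.

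Nuclear factors of the pathway also changed in both directions. LEF1 moved most, TCF7L1 rose by 0.91, TCF7L2 fell by 0.24, and the Groucho corepressors TLE4 and TLE1 rose by 0.96 and 0.59 while TLE3 fell by 0.61. Of 19 developmental transcription factors with known links to Wnt, 5 rose and 5 fell. MSX2, a homeobox factor of ectodermal organs, gave 8.76, 8.9, 8.84 and 8.83 in siAPC cells, against 6.5, 6.66, 6.62 and 6.68 in siGFP cells, without overlap. SOX4 rose by 0.89, whereas MYC and SOX9, both often listed as beta-catenin targets, fell by 0.47 and 0.87. The cell cycle target CCND1 rose by 0.57 (adjusted p = 8.77e-09).

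Promoter letters were searched to show what the DNA of these genes holds. RefSeq promoters (GRCh38.p14) were available for 15384 tested genes, and the 250 bases before each gene start were read on both strands. The TCF/LEF letters were CTTTGAT or CTTTGAA, and the TEAD letters were GGAATG. TCF/LEF letters were present in 4.84% of the tested genes' promoters and in 6.03% of all 27305 promoters. Of genes called higher 3.94% held the letters, and of genes called lower 3.99%. Of the 8 Wnt feedback genes and R-spondin receptors with a promoter sequence 1 held the letters. Among genes at least 2-fold above siGFP that were also at least 2-fold above sibcat, 10 of 71 held them (14.1%), and among the remaining genes at least 2-fold above siGFP 8 of 210 did (3.81%). These shares are a description with no test. The following 4 promoters are shown because their genes were higher after APC depletion than in siGFP and in sibcat cells and hold the letters, which are in capitals. They are SP5 (chr2:170715087-170715336, + strand), IGFL2 (chr19:46147988-46148237, + strand), TDO2 (chr4:155903446-155903695, + strand) and the semaphorin SEMA6D (chr15:47183839-47184088, + strand). SP5 holds 3 copies and each of the others 1.
SP5: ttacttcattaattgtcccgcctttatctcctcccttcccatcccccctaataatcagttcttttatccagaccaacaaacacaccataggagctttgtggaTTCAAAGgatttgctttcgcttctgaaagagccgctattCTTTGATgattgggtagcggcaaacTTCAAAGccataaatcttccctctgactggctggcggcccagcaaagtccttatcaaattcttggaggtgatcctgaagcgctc
IGFL2: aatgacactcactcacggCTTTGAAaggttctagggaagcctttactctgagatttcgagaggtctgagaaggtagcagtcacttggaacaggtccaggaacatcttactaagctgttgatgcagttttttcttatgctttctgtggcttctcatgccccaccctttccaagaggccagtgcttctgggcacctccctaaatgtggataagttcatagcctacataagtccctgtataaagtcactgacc
TDO2: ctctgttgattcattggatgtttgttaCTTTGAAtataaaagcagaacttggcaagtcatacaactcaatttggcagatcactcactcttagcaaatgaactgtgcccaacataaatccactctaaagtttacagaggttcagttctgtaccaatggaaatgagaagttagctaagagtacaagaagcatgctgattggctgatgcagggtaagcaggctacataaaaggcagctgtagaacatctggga
SEMA6D: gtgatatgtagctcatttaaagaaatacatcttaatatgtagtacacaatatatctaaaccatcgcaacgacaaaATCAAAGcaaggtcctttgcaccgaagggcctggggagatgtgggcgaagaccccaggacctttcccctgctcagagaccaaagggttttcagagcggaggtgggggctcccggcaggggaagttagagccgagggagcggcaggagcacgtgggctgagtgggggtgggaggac

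Most YAP and TAZ targets rose. Of 20 measured, 17 rose and 2 fell, with a median change of 1.29. CCN2, a matricellular protein, gave 11.05, 10.99, 11.08 and 11.01 in siAPC cells, against 7.88, 7.79, 7.81 and 7.57 in siGFP cells, and its siAPC arrays lay above every siGFP array. The growth factor TGFB2 rose by 1.68, the matricellular relative CCN1 by 3.37, the BMP-binding membrane protein CRIM1 by 1.66 and the ankyrin repeat protein ANKRD1 by 5.65. ANKRD1 gave 8.74, 8.8, 8.69 and 8.68 in siAPC cells, against 2.85, 3.25, 3.26 and 2.96 in siGFP cells, which lie below the array medians. The members that fell were MYOF (-0.46) and AMOTL1 (-0.12), the second of which lost its call when any of 4 single arrays was left out. WWTR1, the gene of TAZ, was itself lower, at 10.61, 10.6, 10.67 and 10.69 in siAPC cells, against 11.2, 11.1, 11 and 10.92 in siGFP cells, and 3 of its 3 probe sets fell.

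TEAD letters were present in 10.3% of the tested genes' promoters and in 11.9% of all promoters. They were present in 5 of the 15 listed targets with a promoter sequence. Of the largest rises 1 of 19 held them (5.26%) and of the largest falls 5 of 25 (20%). In the genes at least 2-fold above siGFP they were found in 4 of 71 that were also at least 2-fold above sibcat (5.63%), and in 36 of the other 210 (17.1%). The next 2 promoters are shown because both genes rose strongly and hold more than 1 copy, again in capitals: CCN2 (chr6:131951373-131951622, - strand) with 3 copies and ANKRD1 (chr10:90921088-90921337, - strand) with 2.
CCN2: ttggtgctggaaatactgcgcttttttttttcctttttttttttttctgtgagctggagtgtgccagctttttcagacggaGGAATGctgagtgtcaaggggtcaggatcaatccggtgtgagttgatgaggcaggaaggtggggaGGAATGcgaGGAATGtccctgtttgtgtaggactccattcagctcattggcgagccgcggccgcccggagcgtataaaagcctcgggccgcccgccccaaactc
ANKRD1: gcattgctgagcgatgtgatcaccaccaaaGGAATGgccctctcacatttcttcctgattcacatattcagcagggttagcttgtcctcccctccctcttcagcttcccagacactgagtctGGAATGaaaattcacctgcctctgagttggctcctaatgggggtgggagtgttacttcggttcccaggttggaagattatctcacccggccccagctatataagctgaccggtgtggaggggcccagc

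The ligand BMP4 rose while ID1 and ID2 fell. BMP4 gave 10.29, 10.3, 10.3 and 10.25 in siAPC cells, against 5.79, 5.43, 5.79 and 5.57 in siGFP cells, a rise of 24.9-fold. The antagonist NOG rose by 1.45, FSTL3 by 1.00 and BAMBI, a decoy receptor, by 1.24. ID1, an inhibitor of bHLH factors that BMP signalling normally raises, gave 10.32, 10.36, 10.24 and 10.32 in siAPC cells, against 11.92, 11.93, 11.99 and 12.07 in siGFP cells, the lower group without overlap. ID2 fell by 0.79, the ligand BMP6 by 0.82, the inhibitory SMAD6 by 0.69 and the receptor BMPR1B by 0.71. In the whole list of 28 genes 9 rose and 9 fell (64.3% called). Of the TGF-beta genes 7 of 18 rose and 7 fell. The ligands TGFB2 and TGFB3 (0.58) and the receptor TGFBR2 (0.49) rose, and the effector SMAD3 (-0.99), the latency protein LTBP3 (-0.96) and the receptor TGFBR1 (-0.91) fell.

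Genes of the EGF family mostly fell. Of 15 measured ligands, receptors and inhibitors 10 fell and 2 rose, with a median change of -0.46. The ligands EREG and HBEGF fell by 1.06 and 0.64, the receptor ERBB3 by 0.76 and the receptor inhibitor ERRFI1 by 0.94. The exception among ligands was the neuregulin NRG1, a ligand of ERBB3 and ERBB4, with 7.25, 7.41, 7.27 and 7.39 in siAPC cells, against 5.49, 5.53, 5.41 and 5.38 in siGFP cells, no overlap and a rise of 1.88 ± 0.11 (SE, adjusted p = 1.72e-11). Of 20 genes that follow ERK activity 6 rose and 7 fell. The ERK phosphatases DUSP6 and DUSP4 fell by 0.45 and 0.45 and the immediate early factor EGR1 by 0.75, while DUSP1 rose by 0.49. In the FGF list FGF2 rose by 1.16 and FGF9 by 0.72, and the carrier FGFBP1 fell by 1.12.

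Called Notch genes mostly fell. Of 21 measured, 10 fell and 1 rose, the glycosyltransferase RFNG (0.50), so 52.4% were called, against 40.0% of all genes, of which 18.7% fell. NOTCH3 gave 4.94, 4.97, 4.91 and 4.93 in siAPC cells, against 6.3, 6.32, 6.51 and 6.49 in siGFP cells, without overlap. The glycosyltransferase LFNG, which tunes Notch to its ligands, fell by 1.30, the ligand DLL1 by 1.05, the receptor NOTCH1 by 0.59 and the target HES1 by 0.67. Not every probe set of these genes fell: 1 of 2 did for each of NOTCH3, LFNG, DLL1 and NOTCH1, and 2 of 3 for HES1. DLL1 had a siGFP signal of 4.585, below the array medians. Insulin-like growth factor genes rose more often than they fell, with 8 of 18 higher and 5 lower. IGFL2, a small secreted protein of the IGF-like family, gave 10.47, 10.35, 10.15 and 10.41 in siAPC cells, against 6.47, 6.63, 6.82 and 6.77 in siGFP cells. IRS1, an adaptor of the insulin and IGF receptors, rose by 2.05, the binding protein IGFBP5 by 1.63 and IGFBP3 by 2.41, whereas IGFBP2 fell by 0.72 and IGFL1 by 0.82.

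Gap junction and cadherin genes changed in both directions. Connexin 43 (GJA1), a gap junction channel, gave 9.81, 9.79, 9.72 and 9.85 in siAPC cells, against 6.31, 6.41, 6.6 and 6.28 in siGFP cells, a rise of 10.5-fold. GJA5 rose by 1.60 and GJB2, the connexin of keratinocytes and inner ear, by 1.44, while GJB5 fell by 0.78. Cadherin 11 (CDH11), found in mesenchymal cells and osteoblasts, gave 8.52, 8.49, 8.47 and 8.47 in siAPC cells, against 5.32, 5.46, 5.69 and 5.08 in siGFP cells, and all 4 of its probe sets rose. CDH2 (N-cadherin) rose by 0.95 and CDH3 (P-cadherin) fell by 0.65. CDH1 (E-cadherin), named after its values were seen, fell by 0.24. The desmosomal genes were mixed: DSC3, PERP and DSP fell by 1.00, 0.68 and 0.53, and PKP2 and DSC2 rose by 0.52 and 0.50, although another probe set of DSC2 changed by -0.18. The groups of CDH11 and GJA1 did not overlap.

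Claudins, the sealing proteins of tight junctions, were lower wherever they were called. Of 28 claudin and tight junction genes 9 fell and 1 rose, the plaque protein cingulin (CGN, 0.58), a called share of 35.7% against 40.0% of all genes. The other 18 were not called, and the list median was -0.08. CLDN8 gave 3.8, 3.95, 3.78 and 3.9 in siAPC cells, against 8.74, 8.88, 8.9 and 8.99 in siGFP cells, a fall of 32.5-fold. CLDN1, CLDN23 and CLDN4 fell by 0.83, 0.73 and 0.64 and the scaffold TJP3 by 0.70, whereas TJP1 stood at -0.01 (adjusted p = 0.897) and OCLN at -0.13 (adjusted p = 0.0647). Both depend on the probe set: OCLN stood at -0.516 (adjusted p = 4.58e-07) with the mean of its probe sets and was called under 6 alternatives, and TJP1 at 0.225 (adjusted p = 0.00644) on its most variable probe set. Keratins split evenly, with 6 of 16 higher and 6 lower. The simple-epithelium keratins KRT8, KRT18 and KRT7 rose by 0.56, 0.37 and 0.39. The basal keratins KRT14 and KRT15 fell by 0.60 and 0.80, the luminal KRT19 by 1.07 and KRT13 and KRT23 by 2.31 and 2.78.

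Regulators of epithelial identity were mostly lower. Of 17 measured, 10 fell and 3 rose. The ETS factor ELF3 gave 6.84, 6.88, 6.71 and 6.71 in siAPC cells, against 8.91, 8.98, 9.1 and 9.15 in siGFP cells, without overlap. Its relative EHF fell by 1.26, and 5 of the 6 EHF probe sets fell, while the most variable one stood at -0.09 and was not called. The splicing regulator ESRP1 fell by 1.23 and the Grainyhead factors GRHL1 and GRHL3 by 0.61 and 0.58. PRDM1 (BLIMP1), KLF4 and TFAP2A rose by 1.06, 0.58 and 0.28, the last not called on its most variable probe set (0.165, adjusted p = 0.349). Among drivers of the epithelial-mesenchymal transition ZEB1, TWIST1 and TCF3 rose by 1.51, 0.78 and 0.75, TWIST2 fell by 0.68 (-0.195, adjusted p = 0.128, on its most variable probe set), SNAI2 fell by 0.30, and SNAI1 stood at -0.16 (adjusted p = 0.381).

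Secretory and mucosal defence genes fell without exception among those called. Of 32 measured 20 fell, none rose and 12 were not called, with a median of -0.64, and 13 of them had siGFP signals under 5. The secretoglobin SCGB1A1 gave 3.22, 2.98, 3.07 and 2.68 in siAPC cells, against 7.8, 7.85, 7.91 and 7.86 in siGFP cells. The calcium-binding alarmin S100A8 gave 7.43, 7.38, 7.38 and 7.45 in siAPC cells, against 10.08, 10.12, 10.18 and 10.17 in siGFP cells. Neither gene's groups overlapped. The iron-carrier binder LCN2 fell by 3.06, WFDC2, a small whey acidic protein, by 2.93, the GABA receptor subunit GABRP by 3.30 and the adhesion molecules CEACAM1 and CEACAM6 by 2.79 and 2.77. Within the serpins, inhibitors of proteases, 9 of 19 fell and 3 rose. SERPINA3 fell by 3.61, and SERPINB3 and SERPINB4, so alike that a probe set may read both, by 3.68 and 3.49. SERPINA1 and SERPINA5 fell by 1.89 and 1.87, while SERPINI1 and SERPINB7 rose by 1.25 and 0.98. Further large falls outside this list were in AGR2, a protein disulfide isomerase of mucin-secreting cells (-3.02), the zinc glycoprotein AZGP1 (-3.11), the estrogen sulfotransferase SULT1E1 (-2.94), the prostate stem cell antigen PSCA (-3.11) and the lipase-related PNLIPRP3 (-3.14). CD14, a receptor for bacterial lipopolysaccharide, was lower at 5.25, 4.98, 5.15 and 5.13 in siAPC cells, against 7.78, 7.74, 7.92 and 7.88 in siGFP cells.

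Several extracellular matrix genes rose strongly. Of 19 matrix glycoproteins 12 rose and 3 fell, with a median of 0.53. NID2, a linker of basement membranes, rose by 3.26, FBN2 (fibrillin 2) by 2.78, CCDC80 by 2.43 and EDIL3, an integrin ligand, by 4.40, while SPARC and TNFAIP6 fell by 0.76 and 1.94. Type IV collagen chains COL4A3 and COL4A4, which share a divergent promoter, rose by 3.30 and 3.53 from siGFP signals of 2.68 and 3.79. Of their probe sets 2 of 7 rose for COL4A3 and 2 of 3 for COL4A4. COL8A1 rose by 3.44 and COL4A1 by 0.99, and fibrillar COL1A1 fell by 1.02. HAS2, a hyaluronan synthase, gave 9.52, 9.43, 9.66 and 9.5 in siAPC cells, against 5.28, 5.25, 5.08 and 4.69 in siGFP cells, with no overlap. The synthase HAS3 fell by 0.54, and CEMIP, which takes part in hyaluronan breakdown, by 2.51. Integrin subunit ITGA1, a collagen receptor, rose by 2.75 to 7.62 in siAPC cells, against 4.87 in siGFP cells, whereas ITGA6, ITGAV and the laminin chain LAMB3 fell by 0.95, 1.00 and 1.03.

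Of 29 matrix proteases and inhibitors 7 rose and 12 fell, with a median of -0.09. ADAMTS1, a secreted protease that cleaves proteoglycans, gave 10.63, 10.61, 10.63 and 10.63 in siAPC cells, against 5.27, 4.87, 5.24 and 5.02 in siGFP cells. ADAMTS9, ADAMTS5 and ADAMTS6 rose by 2.66, 2.01 and 2.00. Named after their values were seen, ADAMTS12 rose by 1.78 and ADAMTS15 fell by 1.14. The membrane-type protease MMP16 rose by 2.18, while MMP7, MMP1 and MMP10 fell by 2.66, 1.96 and 1.71 and the plasminogen activator PLAT by 1.41. The inhibitor TIMP3 gave 7.71, 7.52, 7.66 and 7.65 in siAPC cells, against 9.47, 9.6, 9.53 and 9.65 in siGFP cells, without overlap. The actin list leaned upward, with 14 of 22 higher and 1 lower, TPM1 at 1.07 and ACTA2 at 0.91. Of 40 guidance genes 13 rose and 13 fell. The semaphorin SEMA6D led the rises at 2.39 and SEMA4B the falls at -1.07. The ephrin receptor EPHA4 rose by 0.77, and EPHB3, known as a Wnt target in the intestine, fell by 0.78.

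**Figure D3:**
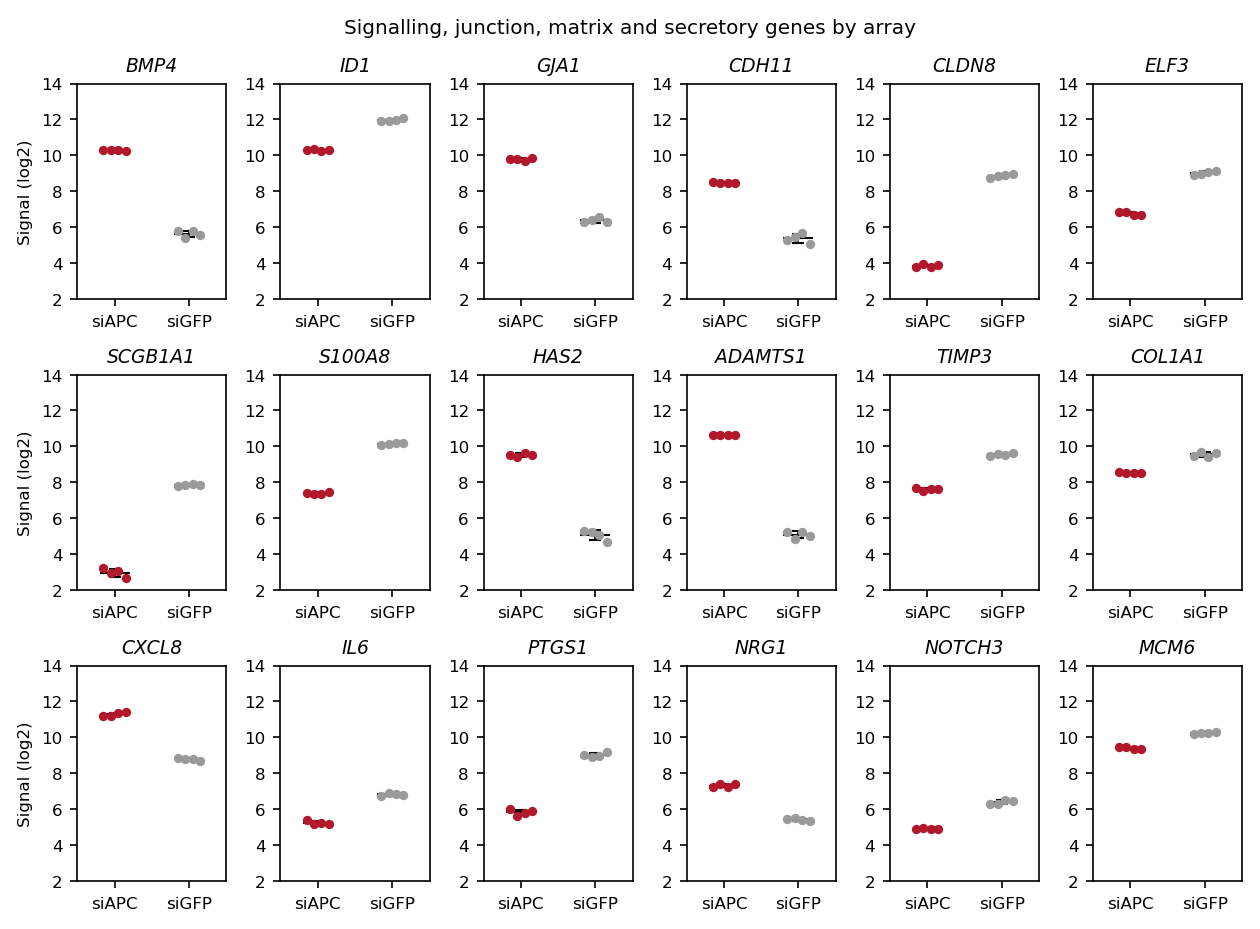
Log2 signal of 18 genes on each of the 4 siAPC arrays (red, left) and 4 siGFP arrays (grey, right), with the group mean and SD in black; the vertical axis is shared. BMP4, GJA1, CDH11, HAS2, ADAMTS1, CXCL8 and NRG1 are higher in siAPC cells and the other 11 genes lower, in each case without overlap between the groups.

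Chemokines and cytokines changed gene by gene. CXCL8, a neutrophil attractant, gave 11.2, 11.22, 11.34 and 11.39 in siAPC cells, against 8.87, 8.83, 8.83 and 8.69 in siGFP cells, and its relatives CXCL1, CXCL6 and CXCL3 rose by 2.54, 1.44 and 0.55. The interferon-inducible CXCL11 and CXCL10 fell by 2.32 and 0.59, and the mucosal chemokine CCL28 by 1.39. IL6 gave 5.42, 5.21, 5.24 and 5.2 in siAPC cells, against 6.74, 6.9, 6.88 and 6.83 in siGFP cells, so the cytokine moved opposite to CXCL8 and neither gene's groups overlapped. IL1B, IL33, IL7 and CSF1 fell by 1.55, 1.53, 1.26 and 1.07, while the receptor IL7R rose by 2.57. Of the 19 chemokine genes 5 rose and 5 fell, and of 25 cytokine genes 8 rose and 8 fell.

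Of 20 prostaglandin genes 7 fell and 3 rose, against 18.7% of all genes that fell and 21.3% that rose. PTGS1 (cyclooxygenase 1) gave 6.0, 5.64, 5.81 and 5.89 in siAPC cells, against 9.04, 8.93, 8.98 and 9.21 in siGFP cells, and all 4 of its probe sets fell, while PTGS2, the inducible enzyme, stood at -0.12 (adjusted p = 0.304). The prostaglandin E synthase PTGES fell by 1.44, the degrading enzyme HPGD by 1.77 and the receptor PTGFR by 2.32, and the receptors PTGER4 and PTGER2 rose by 1.25 and 0.30 and the exporter ABCC4 by 0.85, with PTGER2 not called without siGFP array D (0.238). Of 22 TNF ligands and receptors 12 rose and 3 fell. The death ligand TNFSF10 (TRAIL) fell by 2.78 while the death receptor FAS rose by 0.83. The ligands TNFSF18 and TNFSF15 rose by 1.75 and 1.23. TNFRSF11A (RANK), a receptor of mammary progenitor growth, fell by 1.86, and TNFRSF11B (osteoprotegerin), a decoy receptor for the same ligand, rose by 1.18. Interferon-stimulated genes had 18 lower and 3 higher of 31, with IFIT2, ISG20 and IRF1 at -1.76, -1.57 and -1.27, and IFI44 and IFI44L higher at 1.20 and 0.65.

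In the DNA replication list 17 of 28 fell and 4 rose, with a median of -0.20. MCM6, a subunit of the replicative helicase, gave 9.48, 9.49, 9.36 and 9.36 in siAPC cells, against 10.2, 10.23, 10.25 and 10.28 in siGFP cells, and MCM4 fell by 0.74. Of 28 mitotic genes 9 rose and 12 fell, none by more than 0.50, the change of the spindle motor KIF11, and the median was -0.04. Of 25 cyclins, CDKs and inhibitors 5 rose and 12 fell. CDK6 and the CDK inhibitor CDKN1C rose by 0.76 and 0.97, and CCND3, CDKN1B and CCNA1 fell by 0.64, 0.55 and 1.18. The p53 targets had 13 of 19 higher and 5 lower. The BH3-only death gene PMAIP1 (NOXA) led at 2.13 ± 0.05 (SE, adjusted p = 6.57e-18), the kinase PLK2 rose by 0.98 and CDKN1A, an inhibitor of cyclin-dependent kinases, by 0.19.

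Metabolic genes changed in both directions. Of 29 genes of amino acid stress and transport 16 rose and 3 fell, with a median of 0.43. ASNS, asparagine synthetase, gave 10.92, 10.91, 10.95 and 10.87 in siAPC cells, against 8.48, 8.58, 8.58 and 8.7 in siGFP cells, a rise of 5.02-fold without overlap. The cystine transporter SLC7A11 rose by 1.39, the serine synthesis enzyme PHGDH by 1.08 and the stress factors DDIT3 (CHOP) and ATF5 by 1.08 and 0.94. The 3 that fell were SLC6A14, a transporter of mucosal epithelia (-4.30), CEBPB (-0.85) and DDIT4 (-0.23). Of 26 hypoxia and glycolysis genes 17 fell and 4 rose. ANGPTL4 fell by 1.71, CA12 by 1.02 and PDK1 by 0.67, and the neuronal enolase ENO2 and glucose transporter SLC2A3 rose by 1.11 and 0.70. Of 21 lipid synthesis genes 12 rose and 2 fell, none by more than the 0.74 of FDPS.

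**Figure D4:**
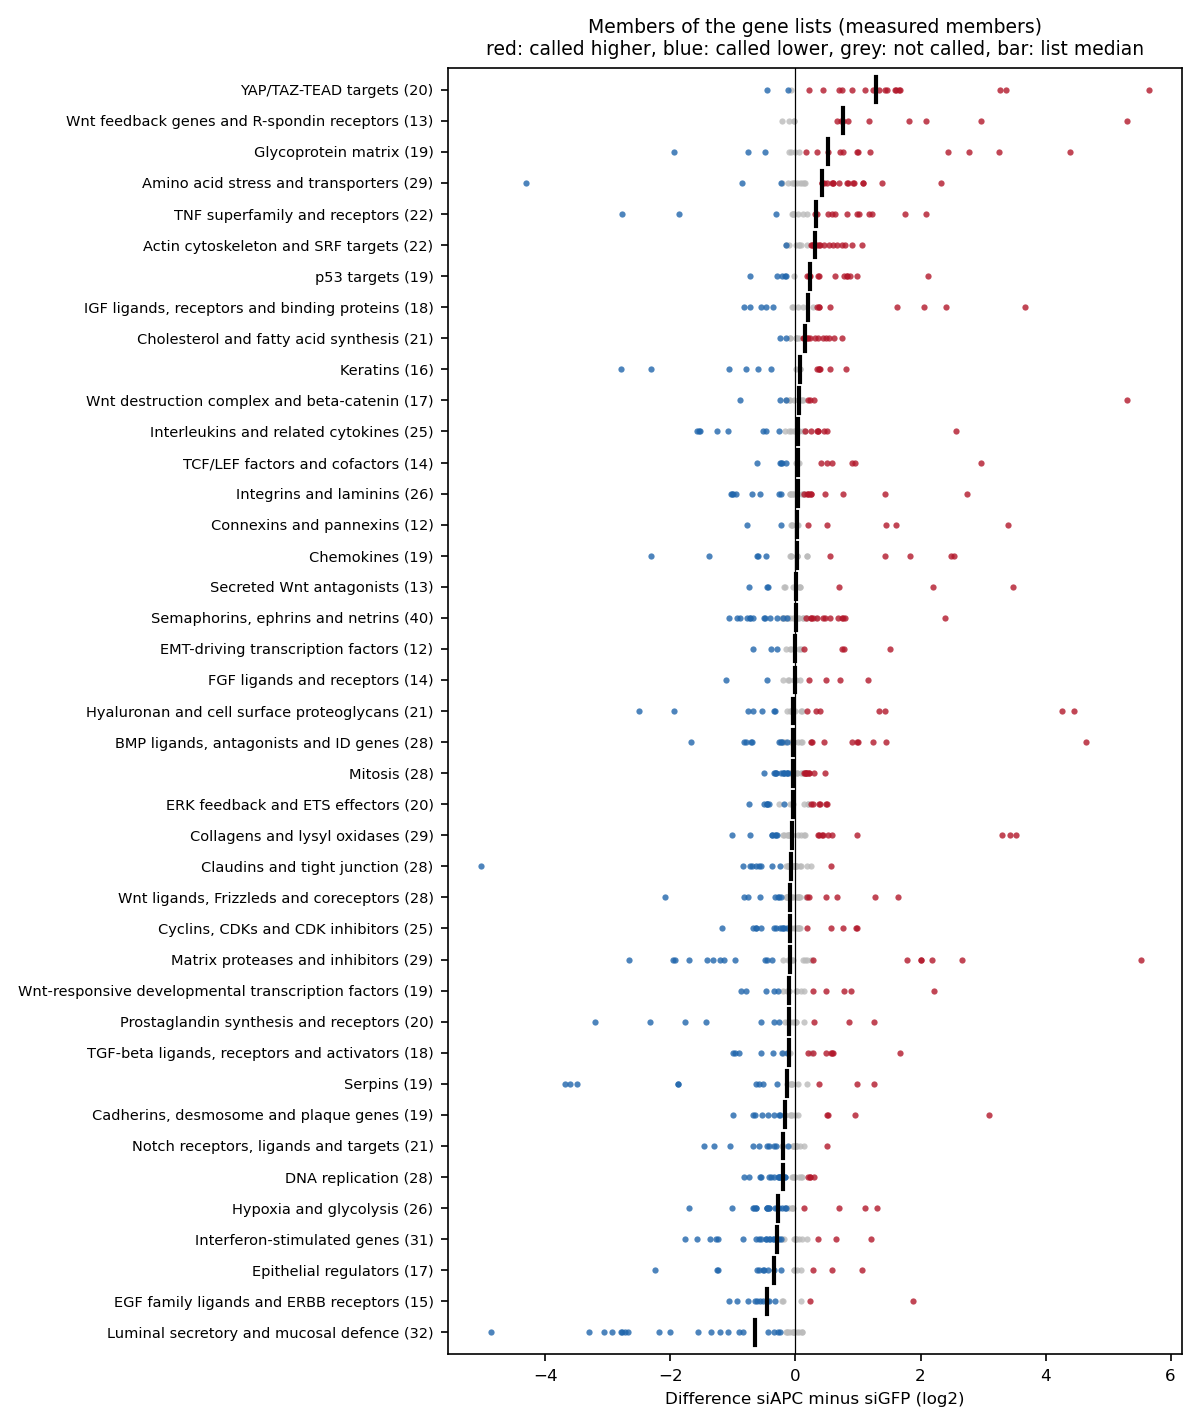
Difference siAPC minus siGFP (log2, horizontal axis) of each measured member of 41 gene lists, ordered by the list median (black bar), with the number of measured members in parentheses. Red members were called higher, blue lower and grey not called; YAP/TAZ-TEAD targets have the highest median (1.29) and luminal secretory and mucosal defence genes the lowest (-0.64).

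Some of the largest rises lay outside the lists, and all of those named here were also higher in sibcat than in siGFP cells. Against siGFP the sibcat changes were 3.9 for OLR1, 2.7 for BDNF, 3.2 for KCNT2, 3.2 for ANO2 and 2.9 for HSD3B1. They were 3.5 for LYPD6B, 3.5 for PSG9, 3.1 for PSG4 and 3.2 for PSG2, and the smallest was 1.6, for PTX3. Those of OXTR, SLC4A4 and LYPD6 are given below. The oxidised LDL receptor OLR1 gave 8.86, 8.83, 8.98 and 8.77 in siAPC cells, against 3.8, 3.27, 3.81 and 3.85 in siGFP cells. OXTR, the oxytocin receptor of myoepithelial and uterine cells, gave 10.3, 10.37, 10.24 and 10.26 in siAPC cells, against 5.65, 5.68, 5.52 and 5.54 in siGFP cells. In both genes the arrays of the groups lay far apart. The neurotrophin BDNF rose by 3.49 ± 0.05 and the pentraxin PTX3, a soluble pattern recognition protein, by 3.40 ± 0.09. The sodium bicarbonate cotransporter SLC4A4 rose by 4.13, the potassium channel KCNT2 by 3.56, the chloride channel ANO2 by 3.64 and the steroid enzyme HSD3B1 by 3.50, all from siGFP signals under 4. Of their probe sets 1 of 5 rose for SLC4A4, 2 of 2 for KCNT2 and 1 of 2 each for ANO2 and HSD3B1. The neighbouring genes LYPD6 and LYPD6B rose by 4.46 and 3.99. The pregnancy-specific glycoproteins PSG9, PSG4 and PSG2 rose by 4.05, 3.54 and 3.52, but their sequences are so alike that a probe set may read several of them. Falls outside the lists included PRKAR2B, a regulatory subunit of protein kinase A (-3.12), the homeodomain-only gene HOPX (-2.93), the immune checkpoint ligand VTCN1 (-3.01) and the retinoid-responsive RARRES1 (-2.57). In sibcat cells their changes from siGFP were -1.8, -3.0, -3.4 and -2.1 in the same order.

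The direct comparison with beta-catenin siRNA showed which of these changes differed between the depletions. Both depletions were set against the same siGFP arrays, so their changes from control share that noise, while the difference siAPC minus sibcat does not contain it. In that difference 6690 of 19775 genes were called (33.8%), 3223 higher and 3467 lower in siAPC cells. The list counts against sibcat below stand against these counts of all genes. AXIN2 was 5.81 ± 0.08 higher than in sibcat cells (SE, adjusted p = 4.62e-20), and 10 of the 13 feedback genes were higher and none lower, with a median difference of 1.12. CTNNB1 itself was 1.38 higher in siAPC than in sibcat cells.

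Among the 10 genes most above sibcat were several outside the feedback list. GJA1 was 4.12 higher in siAPC than in sibcat cells, and changed by 3.39 in siAPC and -0.73 in sibcat cells against siGFP. IGFL2 differed by 4.32, with changes of 3.67 in siAPC and -0.65 in sibcat cells. For TDO2, DKK2, HAS2 and CDH11 the differences were 3.83, 3.62, 3.35 and 3.33. CXCL8 differed by 3.35, with 2.48 in siAPC and -0.86 in sibcat cells. ITGA1, MMP16, ADAMTS9 and SEMA6D were 2.71, 2.49, 2.28 and 2.15 higher in siAPC cells. BMP4 rose after both depletions, by 4.64 in siAPC and 2.39 in sibcat cells, and differed by 2.25 (adjusted p = 1.4e-14).

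Other genes changed in the same direction after both depletions, and the difference was small beside the changes or was not called. ANKRD1 changed by 5.65 in siAPC and 5.10 in sibcat cells, a difference of 0.55 ± 0.10 (SE, adjusted p = 0.000188), and CCN2 by 3.27 and 2.80 in the same order, a difference of 0.47 ± 0.17 (adjusted p = 0.0378). The YAP/TAZ-TEAD list had 14 of 20 genes higher and 2 lower in siAPC than in sibcat cells, a called share above the 33.8% of all genes. Its median difference was 0.30. SCGB1A1 fell by 4.87 in siAPC cells and changed by -4.75 in sibcat cells, and the difference of -0.12 ± 0.11 was not called (adjusted p = 0.499). LCN2 and DKK3 differed by 0.05 ± 0.08 and 0.13 ± 0.05, also not called (adjusted p = 0.685 and 0.0722). Many of the largest changes were shared in this way. ADAMTS1 changed by 5.5 in siAPC and 4.9 in sibcat cells, and in the same order OXTR by 4.70 and 4.20. SLC4A4 changed by 4.13 and 3.71, LYPD6 by 4.46 and 4.04 and CLDN8 by -5.02 and -4.25, with the difference called in each of these 5 genes. WWTR1 changed by -0.41 and -0.43, a difference not called (adjusted p = 0.839).

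Of the 10 genes most below sibcat, some had fallen more after APC depletion and others were higher in sibcat than in siGFP cells. ARL14, a small GTPase, changed by -3.70 in siAPC and -1.10 in sibcat cells, a difference of -2.60. CD14 stood at -2.70 and -0.23 in the same order, the prostaglandin receptor PTGFR at -2.32 and 0.02, and ASB9, a substrate adaptor of ubiquitin ligases, at -2.56 and 0.16. IL6 fell by 1.57 in siAPC cells and rose by 1.21 in sibcat cells. IFI6, IFIT1 and ISG15, interferon-induced antiviral genes, stood at -0.26, -0.36 and -0.23 in siAPC cells and at 2.54, 2.22 and 2.14 in sibcat cells. The interferon list was lower in siAPC than in sibcat cells in 28 of 31 genes and higher in none, with a median difference of -0.97, against a median of -0.30 for siAPC minus siGFP. Mitotic genes were lower in 28 of 28, with a median difference of -0.62, while their median for siAPC minus siGFP was -0.04. The proliferation marker MKI67 stood at -0.35 in siAPC and 0.50 in sibcat cells against siGFP. Keratins KRT13 and KRT23, lower in siAPC than in siGFP cells, were 2.58 and 1.98 higher in siAPC than in sibcat cells.

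**Figure D5:**
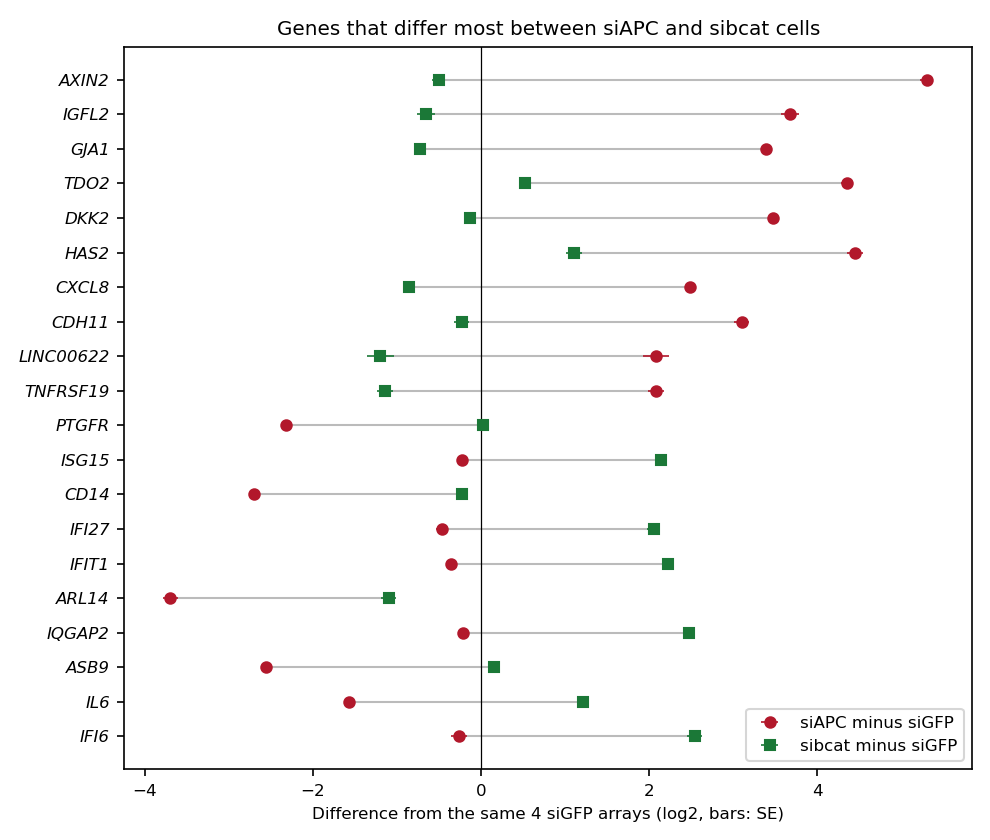
Difference from the siGFP mean (log2, horizontal axis, bars are SE) in siAPC cells (red circles) and sibcat cells (green squares) for the 10 genes most above and the 10 most below sibcat in siAPC cells. Both use the same 4 siGFP arrays; AXIN2 stands at 5.31 in siAPC and -0.51 in sibcat cells.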

How the data were processed

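RNA from MII cells was hybridised to Affymetrix HG-U133 Plus 2.0 arrays. The authors' deposited values are log2 signals, made with RMA per the submitters' processing notes, which give no version. They were used as deposited, to 2 decimals. Of 54675 probe sets, 41091 carried 1 gene symbol and 1801 several, 62 were controls and 11721 had none. Only probe sets with 1 symbol were used, taking for each of 19775 genes the brightest one on average across the 20 arrays.

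The siAPC and siGFP groups were compared with limma 3.58.1 in R 4.3.3, on group means fitted to all 20 arrays with eBayes. P-values were adjusted by Benjamini-Hochberg over all genes and called under 0.05. The difference siAPC minus sibcat came from the same fit. The script was tested on simulated data. The 3' minus 5' control signals were compared with an exact permutation test (SciPy 1.17.1). Arrays have no read depth; the number of arrays limits the precision.

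Genes were named as follows: APC, CTNNB1, WWTR1 and AXIN2; the 30 strongest rises and 30 strongest falls of called genes whose arrays did not overlap; up to 5 called members in each direction per list, and members not called with their values; and the 10 largest differences in each direction against sibcat. Genes named outside this rule are marked in the text. The members and lists were chosen with earlier results of these data known. Alternatives covered the arrays in the fit, a replicate block, the probe set per gene, filters at signals of 5 and 6, centring, the prior, array weights and leaving out each array. Promoter sequences are RefSeq's.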

Additional observations from a re-analysis of the deposited data

Results flagged for a closer look

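In 30 of 534 groups of 4 arrays, over 267 named genes, 1 array stood apart from the other 3 by more than Dixon's 95% critical value; chance sets apart about 1 in 20 groups. The highest siAPC array stood apart in AXIN2 (10.14 in replicate D, nearest 10.09), DDIT4 (13.04 in replicate B, nearest 13.02), ERBB3 (7.81 in replicate B, nearest 7.76) and GJB2 (11.12 in replicate C, nearest 11). So it did in GRHL3 (6.87 in replicate C, nearest 6.8), HES1 (8.59 in replicate B, nearest 8.51), PDK1 (9.06 in replicate C, nearest 8.97) and SLC4A4 (6.99 in replicate C, nearest 6.73). So it did in TLE4 (9.21 in replicate D, nearest 9.09). The lowest siAPC array stood apart in ADAMTS1 (10.61 in replicate B, nearest 10.63), CEMIP (4.75 in replicate A, nearest 5.14), DUSP1 (11.5 in replicate C, nearest 11.6) and IFI44L (7.93 in replicate D, nearest 8.0). So it did in IGFBP5 (6.09 in replicate D, nearest 6.17), IL7R (9.85 in replicate C, nearest 9.98), KRT13 (6.31 in replicate B, nearest 6.55) and PDE1C (7.26 in replicate D, nearest 7.33). So it did in PRKAR2B (2.95 in replicate A, nearest 3.45). The highest siGFP array stood apart in CRIM1 (9.22 in replicate A, nearest 9.19), DLL1 (4.85 in replicate D, nearest 4.5), PSCA (9.22 in replicate C, nearest 9.07) and RFNG (6.13 in replicate D, nearest 5.88). So it did in SERPINA3 (10.99 in replicate C, nearest 10.83). The lowest siGFP array stood apart in CDK6 (10.37 in replicate A, nearest 10.41), EPHA4 (6.86 in replicate C, nearest 6.97), FDPS (10.92 in replicate B, nearest 10.98) and IFI44L (7.21 in replicate B, nearest 7.37). So it did in LGR5 (4.07 in replicate A, nearest 4.3), OLR1 (3.27 in replicate B, nearest 3.8) and PTGER4 (7.23 in replicate D, nearest 7.41).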

How the results depend on the processing

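Leaving out each siAPC or siGFP array in turn gave 7404 to 7616 called genes, with 368 to 381 at least 2-fold higher and 333 to 344 at least 2-fold lower. The replicate letters gave no pairing: same-letter deviations of siAPC and siGFP arrays correlated at -0.055 to 0.081, and 1 of 4 letters matched best with its own. With the letters as a replicate block 7952 genes were called against siGFP and 6719 against sibcat. With arrays centred on their median 4594 genes were higher and 3269 lower, in place of 4218 and 3695. With the mean of all probe sets, 79 genes were at least 2-fold lower in siAPC than in sibcat cells, in place of 127. One APC probe set gave 0.028 (adjusted p = 0.895), and GAPDH in place of ACTB gave a 3' minus 5' difference of 0.032 in place of -0.262; the cause of either was not tested.

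The alternatives gave 4439 values for 266 named genes, those under a signal filter having none there, and DSC2 reversed, at -0.175 with its most variable probe set. Calls were lost in 7 genes: AMOTL1, EHF, TFAP2A, TNKS and TWIST2 with another choice of probe set, AMOTL1 under others too, IFI6 without siAPC A or D or siGFP C or D (-0.243 to -0.223), and PTGER2 without siGFP D (0.238). Calls were gained in 5, CTNNB1, LGR5, OCLN, PTGS2 and TJP1. Many other named genes were also not called on every probe set, and only examples are given here. Of the probe sets 1 of 2 rose for TDO2, 2 of 6 for IGFBP5, 1 of 4 for KRT7 and 6 of 14 for TCF3. For GJA5 and TGFB3 1 of 2 rose. Among falls the counts were 1 of 3 for HOPX and BMP6 and 1 of 2 for KRT19, CEMIP and FZD5. Of 1530 list counts 58 moved over 1.5 times, 17 of them on leaving out an array. Those were fallen TCF/LEF members (3 without siAPC B, 2 without siGFP B), fallen YAP/TAZ targets (1 without siAPC C, siAPC D, siGFP B or siGFP D), risen Notch genes (2 without siGFP D), risen tight junction genes (2 without siAPC D), risen integrin genes (6 without siAPC B or C), fallen actin genes (2 without siAPC C, 0 without siAPC A or B or siGFP A, C or D) and risen fibroblast markers (1 without siAPC C). Genes under a mean signal of 6 held many calls: with that filter 11 secretory genes and 5 Wnt feedback genes stayed in the counts. With the 2 groups' arrays alone, 1 feedback gene, LGR5, was called lower.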
